A study of Homo sapiens with 13 samples.

Results

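The 10 genes described here are the best known members of the BCL2 family, the proteins that set the threshold for apoptosis. They were chosen by name from the 20033 protein-coding genes of GENCODE version 44, and the rule used no peak value, though earlier results of these data were known when they were chosen. The pro-survival members are BCL2, BCL2L1, MCL1 and BCL2A1. The pro-death members are the effectors BAX and BAK1 and the BH3-only proteins BCL2L11, BBC3, PMAIP1 and BID.

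The cells were MOLM-13, an established acute myeloid leukemia line, with no treatment given in the labels. Protein positions on chromatin were mapped by CUT&RUN and CUT&Tag, where an antibody directs a nuclease or a transposase to the protein under study. The 13 libraries were made with antibodies against PTBP1 (Thermo), RUNX1 (Abcam), H3K27me3 (CST) or an IgG control (CST), with makers as the labels give them. For the RUNX1 antibody the study's sources differ, since an antibody list with the paper names Invitrogen. PTBP1 and RUNX1 each had 2 biological replicates in both assays. The values below come from 1 PTBP1 list of 9370 peaks and 1 RUNX1 list of 7688 peaks on the hg38 build. Each list names its target but neither an assay nor a replicate, so there is no spread between replicates, no test was made, and IgG and H3K27me3 were not analysed here. PTBP1 is an RNA-binding protein best known as a splicing repressor, and RUNX1 is a sequence-specific transcription factor of blood cells.

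Apoptosis through the mitochondrion is decided at its outer membrane. The effectors BAX and BAK1 form pores there and release cytochrome c, the pro-survival proteins hold the effectors and the BH3-only proteins in check, and the BH3-only proteins carry damage or starvation signals that free or activate the effectors. Leukemic blasts often depend on BCL2 or MCL1, which is why drugs that imitate a BH3 domain are used against them.

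The strongest peaks at any of the 10 genes lay in intron 2 of BBC3, which encodes the BH3-only protein PUMA. The summits of the PTBP1 peak and the RUNX1 peak fell on the same base, 19:47227136. The sequence around that base is shown because no other pair of member peaks shared a summit to the base. It is read 5′ to 3′ on the strand of the gene (chr19:47227061-47227211, hg38, minus strand), with the RUNX motif TGTGGT in capitals.

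BBC3, shared summit in intron 2: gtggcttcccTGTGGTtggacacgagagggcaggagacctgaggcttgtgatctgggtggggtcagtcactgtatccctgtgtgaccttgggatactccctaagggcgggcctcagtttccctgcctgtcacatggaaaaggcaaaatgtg

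The motif sat 62.5 bases from the summit, just outside the window of 50 bases either side that was searched at every summit. The motif was taken as TGTGGT or TGCGGT on either strand, and these letters were found within that window at 24.2% of all RUNX1 summits and 8.79% of all PTBP1 summits. Among the members it was found at 1 of 16 RUNX1 summits and 2 of 20 PTBP1 summits. The RUNX1 summit was the one past the end of PMAIP1, with the motif centre 0.5 bases away. The PTBP1 summits were one at the start of FTL, a neighbour of BAX, and one downstream of BAK1. A match is a description of the letters and not a bound site, and a window without a match says nothing about the factor.

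The summit window of the PTBP1 peak downstream of BAK1 is shown next (chr6:33571217-33571317, hg38, minus strand). Of the 2 PTBP1 summits with the motif, this is the one outside any promoter. The motif is in capitals, and its centre was 16.5 bases from the summit.

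BAK1, PTBP1 summit downstream: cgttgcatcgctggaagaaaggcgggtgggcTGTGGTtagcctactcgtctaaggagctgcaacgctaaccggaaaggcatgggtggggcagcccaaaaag

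RUNX1 summits at the members' promoters were rich in CG pairs to differing degrees, and the 4 richest are shown beside 1 from farther upstream, all on the strand of the gene and with CG pairs in capitals. They are from PMAIP1 (chr18:59899776-59899876), BCL2 (chr18:63320402-63320502), BID (chr22:17774278-17774378) and BCL2L11 (chr2:111120638-111120738). The contrast is the RUNX1 summit 2228 bases upstream of BCL2 (chr18:63322306-63322406).

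PMAIP1, promoter: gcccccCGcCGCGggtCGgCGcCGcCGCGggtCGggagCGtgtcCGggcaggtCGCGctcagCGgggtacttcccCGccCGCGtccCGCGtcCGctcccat

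BCL2, promoter: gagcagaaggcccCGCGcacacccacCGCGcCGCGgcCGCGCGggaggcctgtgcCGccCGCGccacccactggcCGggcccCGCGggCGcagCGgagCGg

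BID, promoter: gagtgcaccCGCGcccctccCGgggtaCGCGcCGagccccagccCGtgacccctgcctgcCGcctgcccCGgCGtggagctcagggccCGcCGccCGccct

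BCL2L11, promoter: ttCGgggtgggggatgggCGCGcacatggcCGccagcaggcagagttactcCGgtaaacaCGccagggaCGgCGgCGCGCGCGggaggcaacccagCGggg

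BCL2, upstream: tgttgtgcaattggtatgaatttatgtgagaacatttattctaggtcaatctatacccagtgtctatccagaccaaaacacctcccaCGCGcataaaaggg

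In these 101 bases the PMAIP1 summit held 20 CG pairs, the BCL2 promoter summit 18, and the BID and BCL2L11 summits 13 each, whereas the upstream BCL2 summit held 2. The RUNX1 promoter summits not shown, at BBC3 and BAK1, held 9 and 5. None of the 5 windows held the RUNX motif.

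Promoter peaks were counted for each role group within 1000 bases of the gene start, the 5′ end of the annotated gene. A PTBP1 peak was present at the start of 5 of the 6 pro-death genes, BID being the exception, and at 1 of the 4 pro-survival genes, MCL1. A RUNX1 peak was present at the start of 3 of the 6 pro-death genes, BAK1, PMAIP1 and BID, and at 1 of the 4 pro-survival genes, BCL2. Among all protein-coding genes, 26.4% had a PTBP1 peak there and 21.3% a RUNX1 peak. Over the 10 members the counts were 6 for PTBP1 and 4 for RUNX1.

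Peaks of both lists at the gene start were found at BAK1 and PMAIP1, that is at 2 of 6 pro-death and 0 of 4 pro-survival genes. The share over the 10 members was 20%, close to the 17.3% of all protein-coding genes. The count depended on which start was used. BCL2L11 and BBC3 are annotated from 1536 and 1567 bases before the start of the canonical transcript, and their RUNX1 peaks began 1075 and 1099 bases from the gene start but 26 and 0 bases from the canonical start. Counted at the canonical start, a RUNX1 peak was present at 5 of 6 pro-death and 1 of 4 pro-survival genes, and peaks of both lists at 4 of 6 pro-death genes, BAK1, BCL2L11, BBC3 and PMAIP1, and 0 of 4 pro-survival genes. All protein-coding genes had 27.5% for PTBP1, 22.4% for RUNX1 and 18.2% for both at this start. With 4 and 6 genes, 1 gene is 25% of the first group, and the difference between the groups was not tested.

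**Figure D1:**
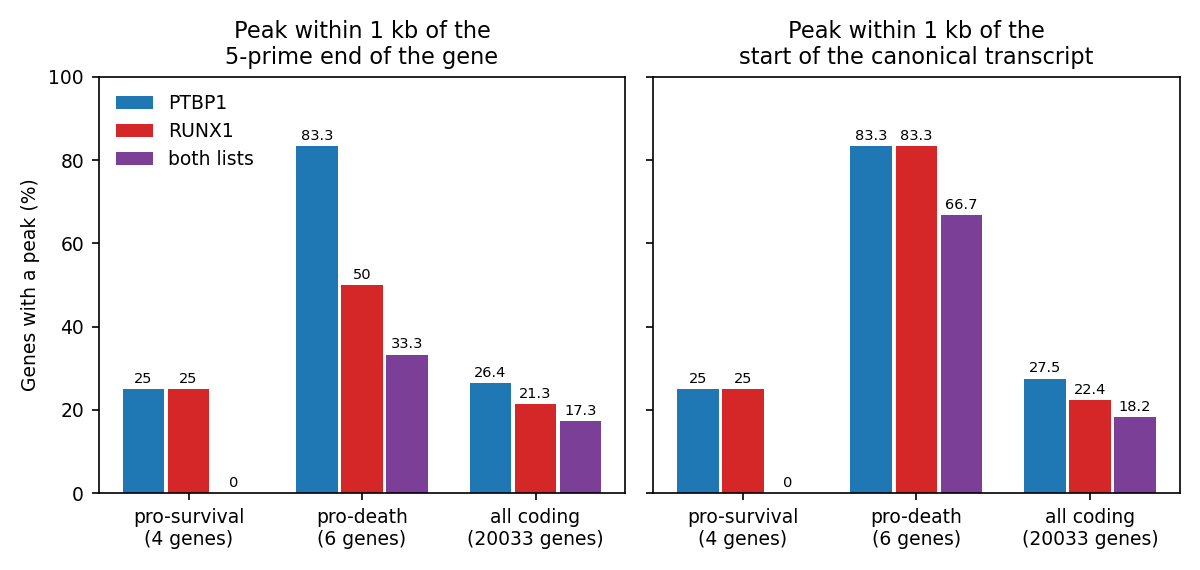
Percentage of genes with a PTBP1 peak (blue), a RUNX1 peak (red) or both (purple) within 1 kb of the 5′ end of the gene (left) or of the canonical transcript (right), for the 4 pro-survival genes, the 6 pro-death genes and all 20033 protein-coding genes. Bars carry no error because there is 1 list per protein. The bar for both lists at pro-death genes is 33.3% on the left and 66.7% on the right, and it is 0 for pro-survival genes in both panels.

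In a wider window, the gene and 10 kb either side, PTBP1 peaks were present at 6 of the 10 members and RUNX1 peaks at 8, against 39.4% and 36.8% of all protein-coding genes. Both were present at 6 members, BAX, BAK1, BCL2L11, BBC3, PMAIP1 and MCL1, against 29.5% of all protein-coding genes. By role this was 5 of 6 pro-death and 1 of 4 pro-survival genes. MCL1 counted only because its annotated extent runs well past its canonical transcript. With the canonical transcript and 10 kb either side, the counts were 5 of 6 and 0 of 4, against 28.3% of all protein-coding genes. BAX in turn counted only because its window reached RUNX1 peaks past its 3′ end. In the gene alone, without flanks, the counts were 4 of 6 pro-death and 1 of 4 pro-survival genes. No share over all protein-coding genes is given for that setting.

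The windows held 20 PTBP1 and 16 RUNX1 peaks, of which 11 PTBP1 and 11 RUNX1 peaks overlapped a peak of the other list and formed 11 shared regions. Windows differ in length, so peaks were also counted per 100 kb. The 6 pro-death windows held 14 PTBP1 peaks, or 5.82 per 100 kb, and the 4 pro-survival windows held 6, or 1.64 per 100 kb. For RUNX1 the pro-death windows held 11 peaks, or 4.57 per 100 kb, and the pro-survival windows 5, or 1.37 per 100 kb. The windows of all protein-coding genes held 0.899 PTBP1 and 0.595 RUNX1 peaks per 100 kb. The pro-death windows were thus denser than the windows of all genes in both lists. A rate per 100 kb does not make windows of unlike length comparable, because every window holds a gene start, where many peaks lie. The 6 pro-death windows covered 240.7 kb, the 4 pro-survival windows 365.5 kb and the 20033 windows of all genes 1780450 kb. No rate matched for length is given. The pro-death counts also include the BAX peaks past the gene end, beside FTL and GYS1. The place of the pro-survival windows turned on MCL1, which held all 6 of their PTBP1 peaks. With the canonical transcript and 10 kb either side, the pro-survival windows held 2 PTBP1 peaks, or 0.571 per 100 kb, which was below the 0.947 of all protein-coding genes. Their 3 RUNX1 peaks there, all at BCL2, made 0.857 per 100 kb against 0.619. The pro-death windows kept 14 and 11 peaks, or 5.90 and 4.64 per 100 kb. BCL2 makes up most of the pro-survival length.

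**Figure D2:**
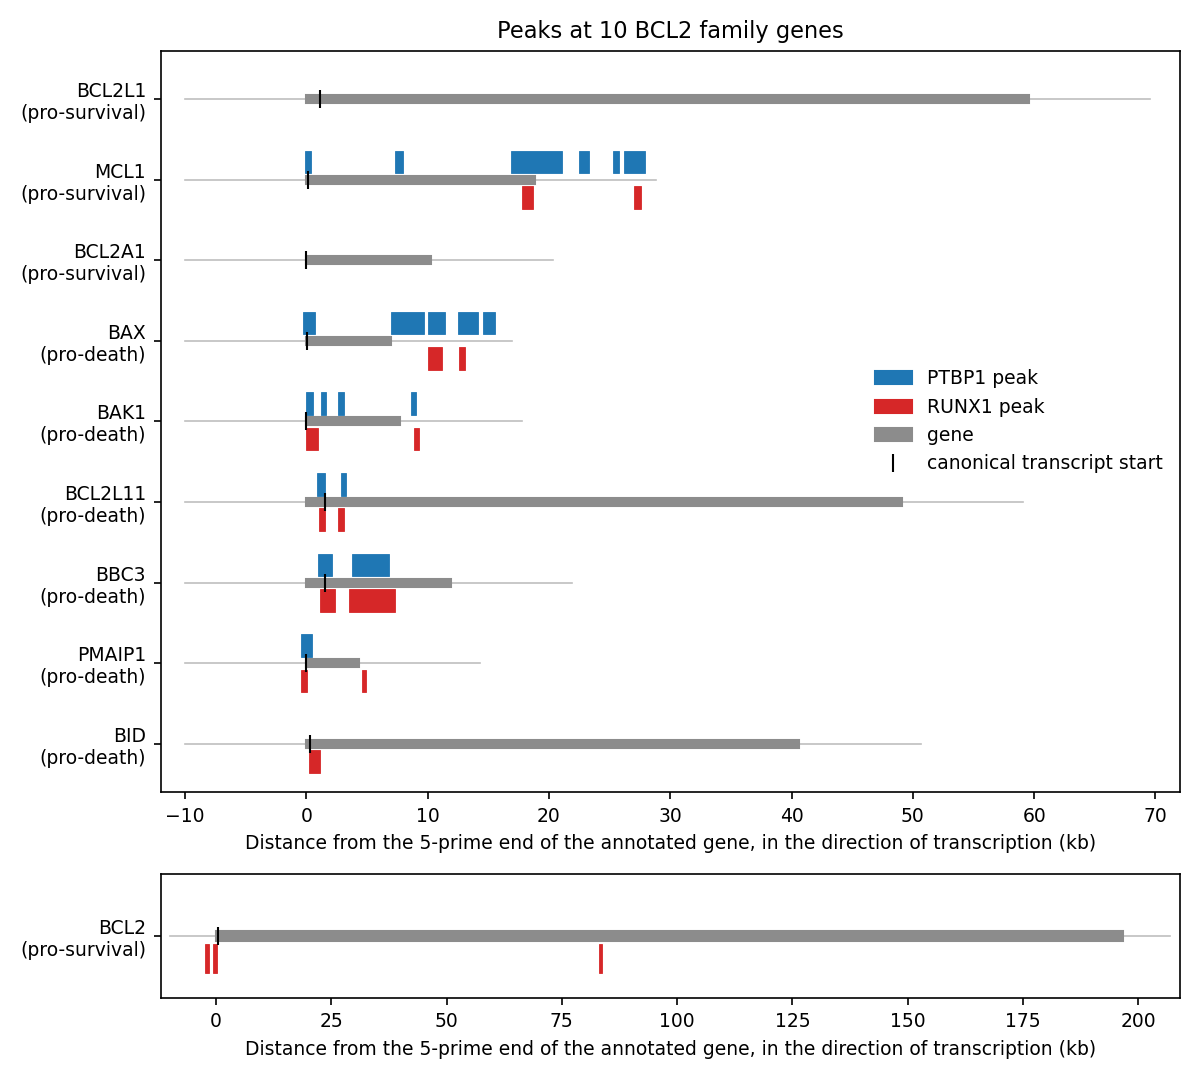
Position of each PTBP1 peak (blue, above the gene) and RUNX1 peak (red, below) along the 10 genes, in kb from the 5′ end of the gene and in the direction of transcription. Grey bars are genes, thin lines the 10 kb either side, and black ticks the canonical transcript start. BCL2 has its own scale. Each of the 6 pro-death genes has a peak of at least 1 list within 1 kb of its start, the windows of BCL2L1 and BCL2A1 are empty, and most peaks of BAX and several of MCL1 lie past the gene end.

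Peak strength is given as fold enrichment, the fragments at the summit over the background with 1 added to each. The background was 0.72 fragments at 19 of 20 member peaks in the PTBP1 list and 0.33 at 16 of 16 in the RUNX1 list, so fewer fragments suffice to call a RUNX1 peak, and fold values are best read within a list. Fragment counts have an exact 95% Poisson interval, which covers counting error only. Member peaks were mostly below the median strength of their list. Their median fold was 11.6 for PTBP1 against 12.2 in the whole list, with 7 of 20 peaks above that, and 13.2 for RUNX1 against 15.0, with 5 of 16 above. At the canonical starts, member peaks ranged from 6.92 to 12.8-fold for PTBP1 and from 10.5 to 15.8-fold for RUNX1, 6 genes each, against medians of 15.1 and 15.0 over the peaks at gene starts of all protein-coding genes.

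**Figure D3:**
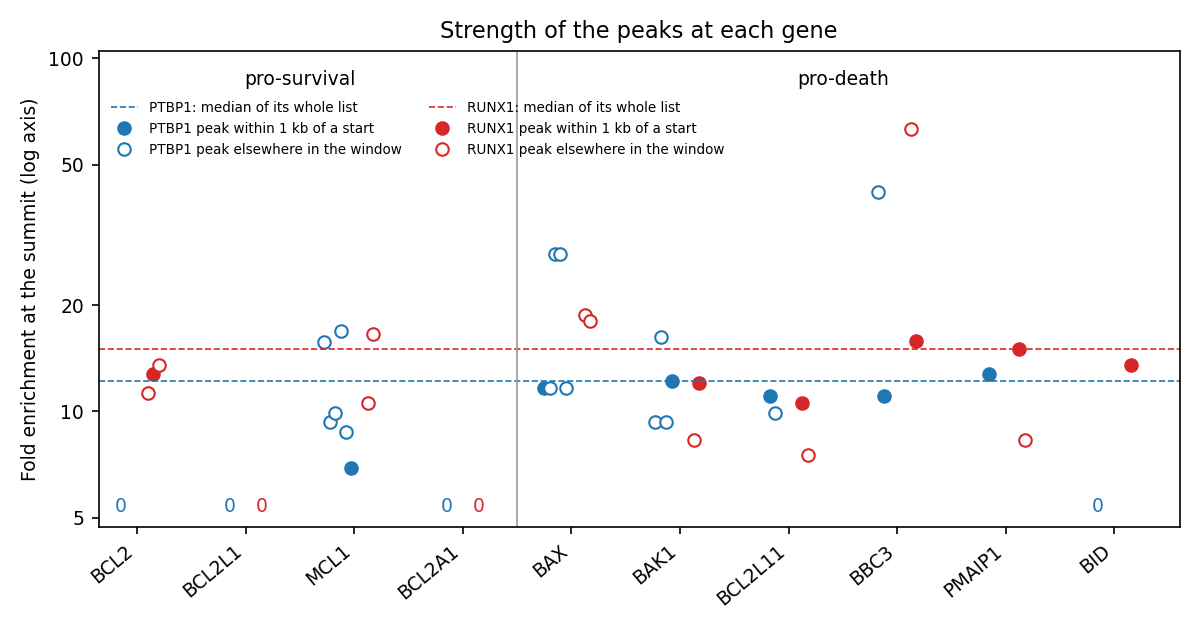
Fold enrichment at the summit (log axis) of every peak in the gene and 10 kb either side, PTBP1 in blue and RUNX1 in red. Filled points lie within 1 kb of the gene or canonical start, open points elsewhere, a 0 on the lowest line marks a window with no peak of that list, and dashed lines are the medians of the whole lists. The shared BBC3 peak stands far above the others at 41.9-fold and 63.2-fold.

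Among the pro-survival genes, BCL2 (18:63123346-63320128, minus strand, 197 kb), which encodes the founding member of the family and the target of venetoclax, had 3 RUNX1 peaks and no PTBP1 peak. The promoter peak (18:63319890-63320732) had its summit 324 bases upstream of the gene start, at 12.8-fold with 16 fragments (9.15 to 26). A second peak 2228 bases upstream (18:63321640-63322500) reached 13.5-fold with 17 fragments (9.90 to 27.2). The intervals of the upstream peaks overlapped. The third (18:63236522-63237144) was in intron 2, 83330 bases into the gene, at 11.3-fold with 14 fragments. The PTBP1 peak nearest to BCL2 was 23075 bases away, past its 3′ end, which makes BCL2 and BID the members with RUNX1 peaks alone.

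MCL1 (1:150560895-150579738, minus strand), which encodes a short-lived pro-survival protein, showed the reverse, with PTBP1 and no RUNX1 at its start. That PTBP1 peak (1:150579382-150579807) had its summit 46 bases upstream of the canonical start. It had 47 fragments (34.5 to 62.5) but the lowest fold of any member peak, 6.92, because the local background there was 5.93 fragments, the only raised background among the member peaks. Its −log10 q-value of 23.3 was above that of the other members' PTBP1 peaks at a gene start or canonical start. The start of a noncoding gene, ENSG00000290074, lay within 1000 bases of the same peak.

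The other 5 PTBP1 peaks at MCL1 and both of its RUNX1 peaks lay past the 3′ end of the canonical transcript. The 2 shared regions there were at 1:150558668-150562858, 16.9-fold for PTBP1 and 16.5-fold for RUNX1 with summits 113 bases apart, and at 1:150551774-150553574, 15.7-fold and 10.5-fold with summits 112 bases apart. The first was within 1000 bases of the starts of the antisense genes ADAMTSL4-AS1 and ADAMTSL4-AS2. The second was inside the neighbouring gene ADAMTSL4 and within 1000 bases of the start of the microRNA gene MIR4257. The PTBP1-only peaks ranged from 8.72 to 9.88-fold.

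BCL2L1 (20:31664452-31723989, minus strand), which encodes BCL-XL, had no peak of either list. The nearest PTBP1 peak was 53418 bases away and the nearest RUNX1 peak 155787 bases away. BCL2A1 (15:79960892-79971196, minus strand), a target of NF-kappaB in blood cells, was likewise empty. Its nearest PTBP1 and RUNX1 peaks were 36884 and 36976 bases away and overlapped each other, at 12.2-fold and 9.77-fold. A missing peak means that none passed the authors' q-value threshold, not that no protein was bound.

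Among the effectors, BAX (19:48954815-48961798, plus strand), which moves from the cytosol to the mitochondrion on activation, had a PTBP1 peak over its start (19:48954573-48955549). Its summit was in coding exon 1, 129 bases after the gene start, at 11.6-fold with 19 fragments (11.4 to 29.7). No RUNX1 peak reached the gene. Both RUNX1 peaks in its window were past the 3′ end, the nearer one by 3075 bases.

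Those peaks were beside FTL, which encodes the light chain of ferritin. The RUNX1 peak at 18.8-fold (19:48964873-48965973) and the PTBP1 peak at 27.9-fold (19:48964873-48966237) began at the same base, had summits 21 bases apart and lay at the start of FTL. The next pair downstream reached 18.0-fold for RUNX1 and 27.9-fold for PTBP1, with summits 201 bases apart. These were the strongest peaks in the BAX window and stronger than the peak at the start of BAX itself, where 19 fragments compare with 47 (34.5 to 62.5) at either of the downstream PTBP1 peaks. Of the other 2 PTBP1 peaks past the gene, both at 11.6-fold, 1 was also within 1000 bases of the start of FTL and 1 was inside GYS1.

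BAK1 (6:33572547-33580293, minus strand), which encodes the effector that resides in the mitochondrial membrane, had peaks of both lists at its start. The PTBP1 summit fell on the first base of the gene, at 12.2-fold with 20 fragments (12.2 to 30.9), in a peak at 6:33579719-33580349. The RUNX1 summit was 33 bases away in the 5′ UTR of exon 1, at 12.03-fold with 15 fragments (8.40 to 24.7), in a peak at 6:33579331-33580326. PTBP1 had further peaks without RUNX1 in intron 1 at 9.30-fold and in intron 2 at 16.3-fold. A second shared region followed the gene end, where the PTBP1 summit was 1280 bases downstream at 9.30-fold and the RUNX1 summit 1443 bases downstream at 8.27-fold. All BAK1 peaks inside the gene lay in its 5′ part, up to intron 2, and the strongest was in that intron rather than at the start.

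Among the BH3-only genes, BCL2L11 (2:111119378-111168444, plus strand), which encodes BIM, a potent activator of both effectors, had 2 shared regions close to its canonical start. In the first, the PTBP1 summit was 440 bases upstream at 11.05-fold with 18 fragments (10.7 to 28.4), and the RUNX1 summit 226 bases upstream at 10.5-fold with 13 fragments (6.92 to 22.2). In the second, in intron 1, the summits were 32 bases apart at 9.88-fold for PTBP1 and 7.52-fold for RUNX1, the latter from only 9 fragments (4.12 to 17.1) and the weakest RUNX1 peak at any member. The PTBP1 and RUNX1 summits of this region were also 216 and 248 bases upstream of the start of another annotated BCL2L11 transcript, at 2:111122576. The rest of this 49.1 kb gene held no peak.

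BBC3 (19:47220822-47232766, minus strand) had 2 shared regions as well. At its canonical start the PTBP1 peak (19:47230631-47231804) reached 11.05-fold with a summit 311 bases upstream, and the RUNX1 peak (19:47230423-47231667) 15.8-fold with a summit 331 bases downstream, in intron 1. Their summits were 642 bases apart, the widest spacing among the shared regions at the members.

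The second BBC3 region was the one with the shared summit whose sequence is printed above. The PTBP1 peak (19:47225963-47228983) reached 41.9-fold with 71 fragments (55.5 to 89.6), which ranked 526 of 9370, above 94.4% of its list. The RUNX1 peak (19:47225432-47229261) reached 63.2-fold with 83 fragments (66.1 to 103), which ranked 250 of 7688, above 96.8% of its list. In both lists the intervals lay wholly above those of the peaks at the BBC3 canonical start, 18 fragments (10.7 to 28.4) for PTBP1 and 20 (12.2 to 30.9) for RUNX1. The summit was 4063 bases after the canonical start but only 53 bases after the start of another annotated BBC3 transcript, at 19:47227189. The microRNA genes MIR3190 and MIR3191 also start within 1000 bases of these peaks. Which of these starts the peaks belong to cannot be told apart from peak positions.

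PMAIP1 (18:59899996-59904305, plus strand), which encodes NOXA, the BH3-only protein that neutralises MCL1, had peaks of both lists just upstream of its start. The PTBP1 summit was 87 bases upstream at 12.8-fold with 21 fragments (13.0 to 32.1), in a peak at 18:59899599-59900452. The RUNX1 summit was 170 bases upstream at 15.0-fold with 19 fragments (11.4 to 29.7), in a peak at 18:59899592-59900075. The peaks overlapped, with summits 83 bases apart. A weaker RUNX1 peak (18:59904597-59904892) lay 384 bases past the gene end at 8.27-fold with 10 fragments (4.80 to 18.4).

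BID (22:17734138-17774770, minus strand), which caspase-8 cleaves to carry a death receptor signal to the mitochondrion, had RUNX1 without PTBP1. Its single RUNX1 peak (22:17773671-17774524) was in intron 1, 141 bases after the canonical start, at 13.5-fold with 17 fragments (9.90 to 27.2). The nearest PTBP1 peak was 104764 bases away, at the start of BCL2L13, another gene of the family.

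By position, the 20 PTBP1 peaks comprised 1 in a coding exon, 4 in introns, 6 in the gene but outside the canonical transcript, 1 upstream and 8 downstream. The 16 RUNX1 peaks comprised 1 in a 5′ UTR, 5 in introns, 2 in the gene but outside the canonical transcript, 3 upstream and 5 downstream. Upstream and downstream here mean beyond the annotated gene. The class outside the canonical transcript mixes both ends. It holds the PTBP1 summits just upstream of the canonical start at MCL1, BAK1, BCL2L11 and BBC3, and the RUNX1 summit there at BCL2L11. Its other summits, all at MCL1, lay past the 3′ end of the canonical transcript. No summit of either list fell in a 3′ UTR or in an exon after the first of a member's canonical transcript. Most downstream peaks belonged to MCL1 and BAX, whose neighbours are described above.

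The members without any peak had a lower CpG content than most of the others. The ratio of observed to expected CG pairs in 1001 bases around the canonical start was 0.555 at BCL2L1 and 0.319 at BCL2A1, the members with no peak. It was between 0.755 and 0.994 at BCL2, MCL1, BAX, BCL2L11, BBC3, PMAIP1 and BID. BAK1 was the exception, with a ratio of 0.312 and peaks of both lists. Among all protein-coding genes, both peaks at the gene start were found at 24% of the 13278 genes with a ratio of at least 0.6 and at 4.13% of the 6755 below it. Its part in the difference between the role groups was not tested. By gene length, both peaks at the gene start were found at 16%, 20.1% and 15.8% of genes, from the shortest to the longest of 3 equal classes. Both peaks in the window, which itself grows with gene length, were found at 27.9%, 33.2% and 27.4%. The part of gene length in the difference between the role groups was not tested either.

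Other genes of the apoptotic machinery were counted by the same rule, within 1000 bases of the gene start. Of 11 other BCL2 family genes, 5 had PTBP1, 2 had RUNX1 and 2 had both. Those with both were BAD, a BH3-only protein controlled by phosphorylation, at 19.8-fold for PTBP1 and 10.5-fold for RUNX1, and BMF, another BH3-only gene, at 11.05-fold and 10.5-fold. BCL2L14, BCL2L15, BOK and HRK had no peak of either list in the gene or 10 kb either side. The shares were 45.5% with PTBP1, 18.2% with RUNX1 and 18.2% with both. All protein-coding genes had 26.4%, 21.3% and 17.3%, and the 10 members 60%, 40% and 20%. The share with both was thus close to that of all protein-coding genes, and the RUNX1 share was below theirs. The differences were not tested. This list mixes pro-survival and pro-death genes.

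Downstream of the mitochondrion, 12 of 17 genes had PTBP1 at the start, 9 had RUNX1 and 8 had both, among them AIFM1, APAF1, CASP9, DIABLO, ENDOG, VDAC2 and VDAC3. The shares were 70.6%, 52.9% and 47.1%, against 26.4%, 21.3% and 17.3% of all protein-coding genes, and the differences were not tested. CASP9, the initiator caspase of the apoptosome, reached 30.2-fold for PTBP1 and 27.1-fold for RUNX1. DIABLO, which relieves caspase inhibition, reached 55.2-fold and 18.0-fold, and VDAC2, a channel of the outer membrane that binds BAK1, reached 26.2-fold and 18.0-fold. These were above any peak of the 10 members at a gene start or canonical start, in both lists. The BBC3 peaks in intron 2, near the start of another annotated transcript, are outside that ranking, at 41.9-fold for PTBP1 and 63.2-fold for RUNX1. In the death receptor pathway 2 of 12 genes had PTBP1 at the start, 4 had RUNX1 and 1, the TRAIL receptor TNFRSF10A, had both, at 11.05-fold and 23.3-fold. The shares were 16.7%, 33.3% and 8.33%, against the same 26.4%, 21.3% and 17.3%. Counted at the canonical start, 4 of the 12 genes had PTBP1, 5 had RUNX1 and 2 had both, FAS being the addition. The shares there were 33.3%, 41.7% and 16.7%, against 27.5%, 22.4% and 18.2% of all protein-coding genes. The PTBP1 share was thus above rather than below that of all protein-coding genes. The counts of the mitochondrial list were the same at either start.

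**Figure D4:**
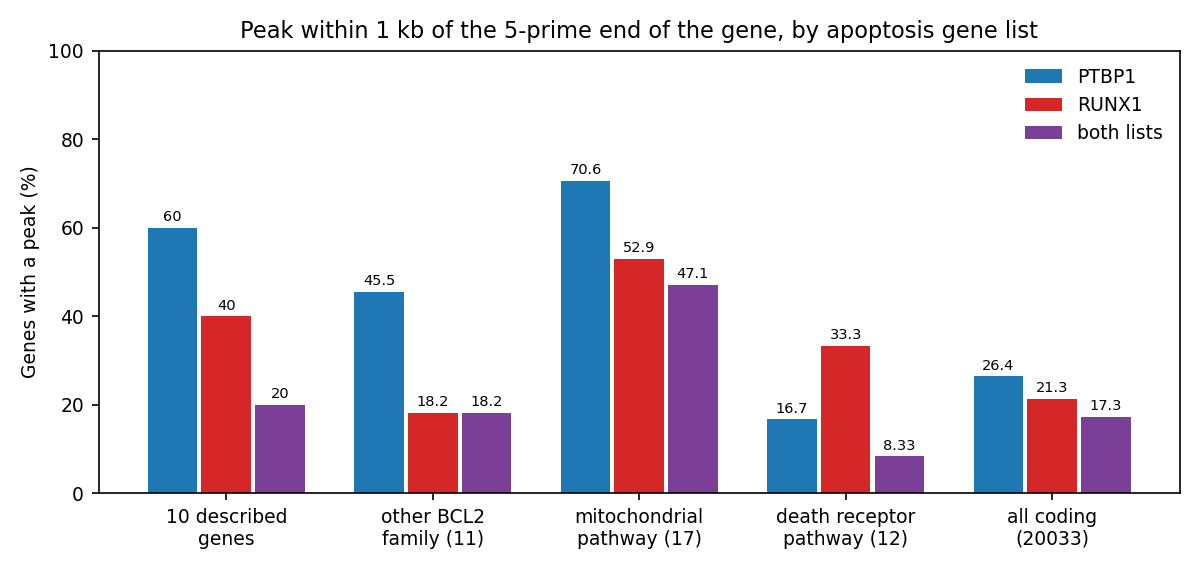
Percentage of genes with a PTBP1 peak (blue), a RUNX1 peak (red) or both (purple) within 1 kb of the 5′ end of the gene, for the 10 members, 3 other apoptosis gene lists and all protein-coding genes. The mitochondrial pathway has the tallest bars at 70.6%, 52.9% and 47.1%, and the death receptor pathway has a RUNX1 bar of 33.3% and a PTBP1 bar of 16.7%, the latter becoming 33.3% when the canonical start is used.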

How the data were processed

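The 13 libraries were made from MOLM-13 cells. Per the labels and the study's methods, the authors aligned reads to hg38 with Bowtie2, dropped poorly mapped and duplicate reads, and ran MACS3 with a q-value threshold of 1e-07, as described for CUT&Tag. Whether replicates were pooled or a control was used is not given in the sources used here. For each peak, the deposited lists give fold enrichment (a ratio), −log10 p-value, −log10 q-value and a score computed from the q-value, which was not used further. Library depth was not analysed here.

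Summit fragments and background were solved from the deposited fold enrichment and −log10 p-value, with a largest error of 0.00056. Genes, exons and introns came from GENCODE version 44. Coordinates are 1-based. All 10 members are named with every peak in the gene and 10 kb either side, and from other lists genes with both peaks at the start are named, with values for at most 3. Members and lists were chosen with earlier results of these data known. Some items are not reported here. Procedures were tested on simulated data. Python 3.11.15, numpy 2.4.6, pandas 2.3.3, scipy 1.17.1, pysam 0.24.0 and matplotlib 3.10.9 were used.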

Additional observations from a re-analysis of the deposited data

How the results depend on the processing

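Of 86 values recomputed under 13 alternatives and 1 more chosen after seeing the data, 79 were labelled as unmoved. That label meant staying within 1.5 times a count or within the 95% interval (Newcombe, from Wilson bounds) of a difference in shares. The interval rests on 4 and 6 genes and is wide, so the label says little about stability. The difference for both proteins at the start was so labelled at −33.3 and at −66.7 points. The number of members with PTBP1 at the start was so labelled at 6 and at 4. The number of members with both proteins at the start rose from 2 to 4 when any annotated transcript start, or the canonical start, was used. Without flanks the windows held 13 PTBP1 peaks, 10 RUNX1 peaks and 7 shared regions in place of 20, 16 and 11, and with a fold enrichment of at least 10 they held 13 PTBP1 peaks. The share of pro-survival minus pro-death genes with both proteins in the window was −58.3 percentage points, and −83.3 points with the window set by the canonical transcript, the alternative chosen after seeing the data, because MCL1 drops out by construction. It was −41.7 points without flanks, where BAX drops out, and −33.3 points with 25 kb either side. PTBP1 at the start of pro-death genes fell from 5 to 3 of 6 when the start base had to lie inside the peak, when a window of 500 bases was used, or when the summit alone decided. The MCL1 start peak was lost at a fold enrichment of at least 10. No paired analysis was possible because each protein has 1 peak list, which carries no replicate number. For the same reason no replicate could be left out. The weakest calls rest on few fragments, 9 or 10 for RUNX1 and 14 for PTBP1, and the part of library depth in this was not tested.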
